A study of Mus musculus with 24 samples.

Results

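Activated CD4+ T cells of 2D2 mice were compared between 0.5 µM and 0.25 µM of I-BET-762, over all 18193 genes measured. The groups compared hold 6 of the 24 arrays of the study, the 3 labelled activated with 0.5 µM and the 3 labelled activated with 0.25 µM, picked by sample title. Standard errors and p-values came from a fit of all 24 arrays, so that the spread was estimated from the other 18 as well. The mice carry a transgenic T cell receptor for a myelin antigen on a C57BL/6 background. All cells were primed towards Th1 for 48 h on plates coated with antibodies to CD3 and CD28, in the presence of I-BET-762, of the control compound Control-768 or of the solvent DMSO. They were then expanded off the plates for 2 days, and activated cells were stimulated again through the same receptors for 4 h, while resting cells were not. The groups used here were activated cells with 0.5 µM and with 0.25 µM I-BET-762, resting cells with 0.5 µM and with 0.25 µM, and, as points of reference, activated cells with Control-768 or DMSO and resting cells with Control-768, each with 3 biological replicates. The labels state neither the dose of Control-768 nor whether compound was still present during expansion and restimulation. The replicate number was used as a block, because arrays with the same number deviated from their group means together. RNA of a bulk culture cannot tell fewer cells of a type from less RNA per cell.

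BET proteins are readers of acetylated histones that gather at active promoters and enhancers and help RNA polymerase II to leave its paused state, in part through the kinase P-TEFb. I-BET-762 fills the pocket that binds acetyl-lysine and so displaces the proteins from chromatin. In T cells, genes switched on by antigen receptor signalling and by lineage programmes, cytokine genes among them, are known to depend on acetylated regulatory elements.

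Expression is given as array intensity, which is on a linear scale. A change is a difference of log2(intensity + 16) with limma's standard error, and a gene was called changed at a Benjamini-Hochberg adjusted p under 0.05 over all genes. The added 16 makes the changes of dim genes smaller than they were on the linear scale. Markers of CD4 T cells were bright in all 6 arrays, with a summed intensity over 9 genes of 44530 to 46170 at 0.5 µM and 40890 to 41430 at 0.25 µM. All 7 B cell markers and all 3 erythroid markers measured had means under an intensity of 64 in both groups, and so did 10 of 11 myeloid markers. Replicate 3 stood apart from replicates 1 and 2. The activated 0.5 µM array of replicate 3 deviated most from its group mean among all 24 arrays (SD of 0.339 over genes on the log2 scale), and the log2 ratio of the Gapdh 3' to the 5' control probe sets was 0.312 in it and 0.285 in its 0.25 µM partner, against 0.062 and 0.05 at 0.5 µM and 0.041 and 0.024 at 0.25 µM in replicates 1 and 2. The resting 0.5 µM array of replicate 3 came next with an SD of 0.333, at a Gapdh ratio of -0.002. In activated cells the SD over genes of the paired dose differences was 0.274 in replicate 1, 0.284 in replicate 2 and 0.441 in replicate 3.

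Few genes differed between the concentrations, and most of those were lower at 0.5 µM. Of 18193 genes, 36 were called (0.198%), 29 lower at 0.5 µM (0.159%) and 7 higher (0.0385%). The fall was led by Shroom3, Procr, Cysltr1, Msc and Trat1, each with an intensity at 0.5 µM well under that at 0.25 µM, and the rise by Il13, Prf1 and Tox2. At least 2-fold changes were found in 22 of the 36, of which 19 were lower and 3 higher, and the sizes ran from 0.45 to 2.19 on the log2 scale. In all 36 the 3 paired differences had the same sign, as they had in 30.1% of all genes, and in 30 of them the arrays of the 2 concentrations did not overlap, as in 8.32% of all genes. An unadjusted p under 0.05 was reached by 1600 genes (8.79%), 668 higher (3.67%) and 932 lower (5.12%). The count was 0 when the 6 compared arrays were fitted alone (1163 genes at an unadjusted p under 0.05, limma), 13 with the 12 activated arrays, 2 with no replicate block and 8 with the replicate as a random block, so that the number of calls depends on the block and on which arrays estimate the spread. It was 16 with a constant of 1, 67 with dim genes left out and 120 with array quality weights. Without the 0.25 µM array of replicate 3 none was left (0 genes), and the count was 18, 13 and 18 without the 0.5 µM array of replicate 1, 2 and 3, and 28 and 9 without the 0.25 µM array of replicate 1 and 2. With a whole replicate left out of all groups, 5 genes were called without replicate 1, 1 without replicate 2 and 10 without replicate 3. With the median of all probe sets of a gene in place of the brightest, Chst2 gave 0.02, Mycn 0.0365, Itga3 -0.19, Il1rl2 -0.45, Jcad -0.59, Stc2 -0.65, Serpinf1 -0.76, Tnfrsf1b 0.45, Tox2 0.58 and Prf1 0.61, each more than 1.5 times from the value given below. The calls of Chst2, Ebi3, Marchf8 and Ltb4r1 were lost in each of the 6 fits that left out 1 compared array. The largest of the 3 paired differences was that of replicate 3 in 24 of the 36 genes, of replicate 2 in 9 and of replicate 1 in 3.

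**Figure D1:**
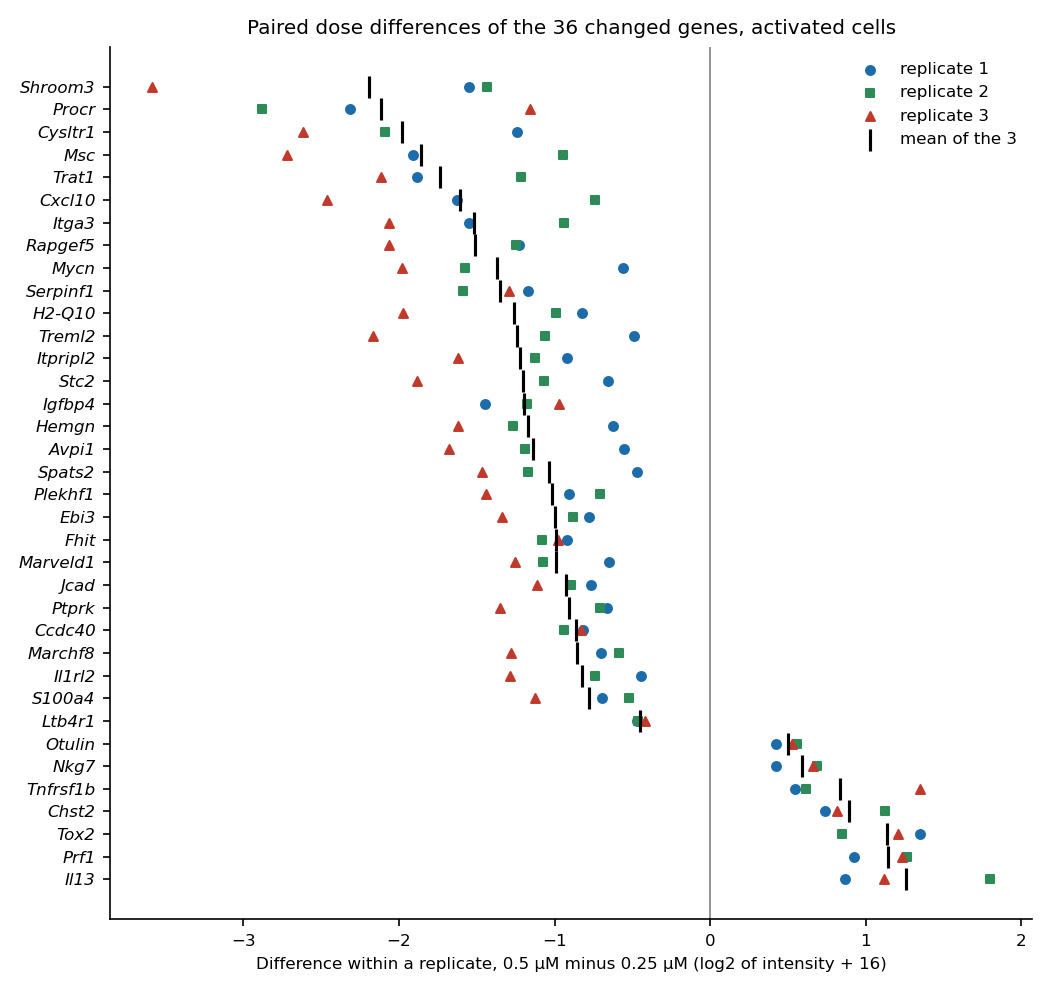
Paired difference of 0.5 µM minus 0.25 µM in log2(intensity + 16) for each of the 36 changed genes in activated cells (rows), with 1 point for each of the 3 replicates and a black bar at their mean. All points of the 29 genes that fell lie left of 0 and all points of the 7 that rose lie right of it, and the points of replicate 3 lie farthest out in 24 genes.

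Several of the genes that fell encode receptors or adaptors of signalling; the genes are grouped here by their known roles, which was done after the calls were known. Cysltr1, a receptor for the lipid mediators called cysteinyl leukotrienes, had intensities of 259, 239.6 and 94.5 at 0.5 µM, against 633, 1071 and 661 at 0.25 µM. Every array at 0.5 µM was below every array at 0.25 µM, and the log2 change was -1.98 ± 0.23 (limma adjusted p = 0.00272). A separate probe set of Cysltr1 gave -1.95. Ltb4r1, the receptor for leukotriene B4, fell by a small and even amount, with 431, 394 and 350.2 at 0.5 µM against 604, 549 and 473 at 0.25 µM. Its paired log2 differences were -0.47, -0.46 and -0.42, the narrowest spread of the receptors described here, with a change of -0.45 ± 0.09 (limma adjusted p = 0.0464). The call of Ltb4r1 was nevertheless lost whichever of the 6 arrays was left out (limma adjusted p of 0.0961 to 0.193). Procr, the receptor of activated protein C, had intensities of 28.8, 33.7 and 22.2 at 0.5 µM against 207, 350.4 and 69.2 at 0.25 µM. The level at 0.5 µM was dim in all 3 arrays, while at 0.25 µM replicate 3 was far below the other two, and the change was -2.12 ± 0.37 (limma adjusted p = 0.0235).

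Trat1 encodes a membrane adaptor that associates with the T cell receptor. It had intensities of 205, 276 and 169 at 0.5 µM against 801, 661 and 787 at 0.25 µM. The groups did not overlap, and the change was -1.74 ± 0.20 (limma adjusted p = 0.00272), with -0.86 from its other probe set. Treml2, a receptor of the TREM family, fell by 1.24 on the log2 scale, with 315, 299 and 60.9 at 0.5 µM against 449, 641 and 330.0 at 0.25 µM. The array of replicate 3 at 0.5 µM held the lowest of these values, and the paired differences of -0.49, -1.06 and -2.17 were uneven. Itga3, the alpha 3 chain of a laminin-binding integrin, was at 42.5, 82.3 and 45.7 at 0.5 µM and at 156, 173 and 242 at 0.25 µM, without overlap, with a change of -1.52 ± 0.27 (limma adjusted p = 0.0242). Smaller falls were called for Ptprk, a receptor-type tyrosine phosphatase (-0.91 ± 0.16), and Il1rl2, the specific chain of the IL-36 receptor (-0.82 ± 0.14). With the median over all its probe sets the change of Ptprk turned to 0.14.

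The promoter of Trat1 is shown as an example from the genes that fell, and those of Prf1 and Cxcl10 follow where these genes are described. They are RefSeq sequences of build GRCm38.p6, from 250 bases before to 50 after the annotated start. The promoter of Trat1 lies on the minus strand at chr16:48772013-48772312, and the capitals mark a match to the RUNX core motif TGTGGT on the opposite strand. RUNX factors are transcription factors of the T cell lineage.
Trat1: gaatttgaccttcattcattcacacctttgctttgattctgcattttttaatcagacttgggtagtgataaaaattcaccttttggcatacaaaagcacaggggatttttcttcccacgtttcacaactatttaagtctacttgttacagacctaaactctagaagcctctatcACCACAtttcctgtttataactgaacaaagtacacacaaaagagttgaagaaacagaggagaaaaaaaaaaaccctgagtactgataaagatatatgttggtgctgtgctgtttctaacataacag
The motifs, chosen after the calls were known, were searched on both strands in the promoters of 14452 of the 18193 genes. TGTGGT was found in 16.1% of these genes, in 6 of the 25 lower genes that had a promoter (24%) and in 3 of the 7 higher genes (42.9%). For each motif a gene was counted if any of its promoters matched. The genes searched had 18109 promoters, the 25 lower genes 29 and the 7 higher genes 11. The AP-1 site TGANTCA was found in 7.54% of all genes, in 3 of the 25 lower genes (12%) and in 0 of the 7 higher ones. The E-box CACGTG, to which MYC family proteins bind, was found in 10.2% of all genes, in 1 of the 25 lower genes (4%) and in 0 of the 7 higher ones. No motif overlaps another in its letters, and a match describes the sequence without showing that a factor binds it.

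Transcription factors and a nuclear protein were also among the falls. Msc (musculin), a basic helix-loop-helix repressor, was at 137, 147 and 75.2 at 0.5 µM against 558, 298 and 585 at 0.25 µM, without overlap, and its change was -1.86 ± 0.30 (limma adjusted p = 0.017). Mycn, the paralogue of Myc, was at 77.6, 63.7 and 24.7 at 0.5 µM against 122, 221 and 145 at 0.25 µM, with a change of -1.37 ± 0.21 (limma adjusted p = 0.0127). The arrays did not overlap, but 2 other probe sets of Mycn, with means of 81.2 and 84.3 over the 6 arrays, gave 0.13 and 0.14, so that the median over probe sets turned to 0.0365. Hemgn, a nuclear protein of blood-forming cells, was dim, with 25.4, 25.8 and 6.53 at 0.5 µM against 47.8, 84.5 and 53.1 at 0.25 µM, and changed by -1.17 ± 0.16 (limma adjusted p = 0.00874). Maf, a factor that drives Il10 and Il21 in T helper cells, did not pass the threshold in the probe set used: it had 716, 609 and 519.8 at 0.5 µM against 949, 1166 and 1289.7 at 0.25 µM, with a change of -0.87 ± 0.17 (limma adjusted p = 0.0594). All other probe sets of Maf were dimmer and also lower. They gave -0.96 (mean of 58.7 over the 6 arrays, limma unadjusted p = 3.58e-06), -0.64, -0.60, -0.18 and -0.16. Eomes, a T-box factor of cytotoxic lymphocytes, did not pass either (-1.12 ± 0.23, limma adjusted p = 0.0712), and its arrays of 97.9, 71.5 and 75.6 at 0.5 µM and 197, 87.9 and 404 at 0.25 µM overlapped.

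Further falls were called for genes linked to actin, cell junctions and small GTPases. Shroom3, an actin-binding protein best known from the shaping of epithelia, was at 119, 176 and 4.35 at 0.5 µM against 380.4, 503 and 229 at 0.25 µM. Replicate 3 at 0.5 µM was close to the floor of the scale, and its paired difference of -3.59 stood beside -1.55 and -1.44 in replicates 1 and 2. The change was -2.19 ± 0.38 (limma adjusted p = 0.0235), and 3 other probe sets gave -1.40, -0.58 and -0.68 and a dim one 0.04. Rapgef5, an exchange factor for Rap GTPases, was at 67.7, 96.1 and 41.5 at 0.5 µM against 179.8, 249.6 and 224 at 0.25 µM, without overlap, and changed by -1.51 ± 0.19 (limma adjusted p = 0.00392). Jcad, a protein of endothelial cell junctions, was at 167, 221 and 101 at 0.5 µM against 295, 424 and 237 at 0.25 µM (-0.92 ± 0.14, limma adjusted p = 0.0107). S100a4, a calcium-binding protein linked to cell motility, was the brightest gene that fell, with 2613, 2936 and 3747 at 0.5 µM against 4232, 4226 and 8201 at 0.25 µM. All 3 arrays at 0.5 µM were below all 3 at 0.25 µM, and the change was -0.78 ± 0.13 (limma adjusted p = 0.0235). Marveld1, a protein with a MARVEL membrane domain, changed by -0.99 ± 0.14 in the probe set used, but by -0.01 in another with a mean of 271.8 over the 6 arrays.

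Secreted proteins that fell included a chemokine, a cytokine subunit and several binding proteins. Cxcl10, an interferon-induced chemokine that attracts CXCR3-positive cells, was at 146, 124 and 58.9 at 0.5 µM against 485, 218 and 398 at 0.25 µM. The groups did not overlap, and the change was -1.61 ± 0.31 (limma adjusted p = 0.0464), next to the threshold. Its promoter, on the minus strand at chr5:92348840-92349139, holds an AP-1 match, in capitals.
Cxcl10: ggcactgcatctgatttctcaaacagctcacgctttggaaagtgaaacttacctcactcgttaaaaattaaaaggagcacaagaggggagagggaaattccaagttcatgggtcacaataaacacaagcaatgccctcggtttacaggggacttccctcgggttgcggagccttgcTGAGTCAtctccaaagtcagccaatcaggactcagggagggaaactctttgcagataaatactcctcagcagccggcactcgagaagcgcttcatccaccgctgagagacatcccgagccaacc
Ebi3, a chain of the cytokines IL-27 and IL-35, was at 413, 351 and 262 at 0.5 µM against 720.2, 659.7 and 686 at 0.25 µM, with a change of -0.998 ± 0.19 (limma adjusted p = 0.0411). Igfbp4, which binds insulin-like growth factors and is high in naive T cells, was at 193, 282 and 170.4 at 0.5 µM against 553, 658 and 349 at 0.25 µM, with -1.20 ± 0.18 (limma adjusted p = 0.0107). Neither gene's arrays overlapped between the concentrations. Serpinf1, a serpin without protease inhibition that acts on vessels, changed by -1.35 ± 0.19, Stc2, a glycoprotein of the stanniocalcin family, by -1.20 ± 0.20, and H2-Q10, a secreted class I-like molecule, by -1.26 ± 0.23. The arrays of H2-Q10 overlapped, with 563, 545 and 87.7 at 0.5 µM and 1007, 1099 and 391 at 0.25 µM, and class I genes are so alike that its signal may include other members. Markers of dendritic cells, of which 6 of 9 had means under 64 in both groups, summed to 768.1 to 1579 at 0.5 µM and 1180.0 to 1761 at 0.25 µM, and their part in these falls was not tested. The other called falls were Itpripl2 (-1.22), Avpi1 (-1.14), Spats2 (-1.04), the endosomal protein gene Plekhf1 (-1.02), Fhit, a hydrolase of dinucleotides (-0.99), Ccdc40, needed for motile cilia (-0.86), and Marchf8, a membrane-bound ubiquitin ligase (-0.86), all as log2 changes. Ccdc40, Fhit, Hemgn, Marchf8 and Plekhf1 had means under 64 over the 6 arrays, and the size of their changes depended on the added constant. With a constant of 64 the changes were -0.47 for Ccdc40, -0.49 for Fhit, -0.59 for Hemgn, -0.44 for Marchf8 and -0.59 for Plekhf1, and with a constant of 1 they were -1.50 for Fhit and -1.80 for Hemgn.

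**Figure D2:**
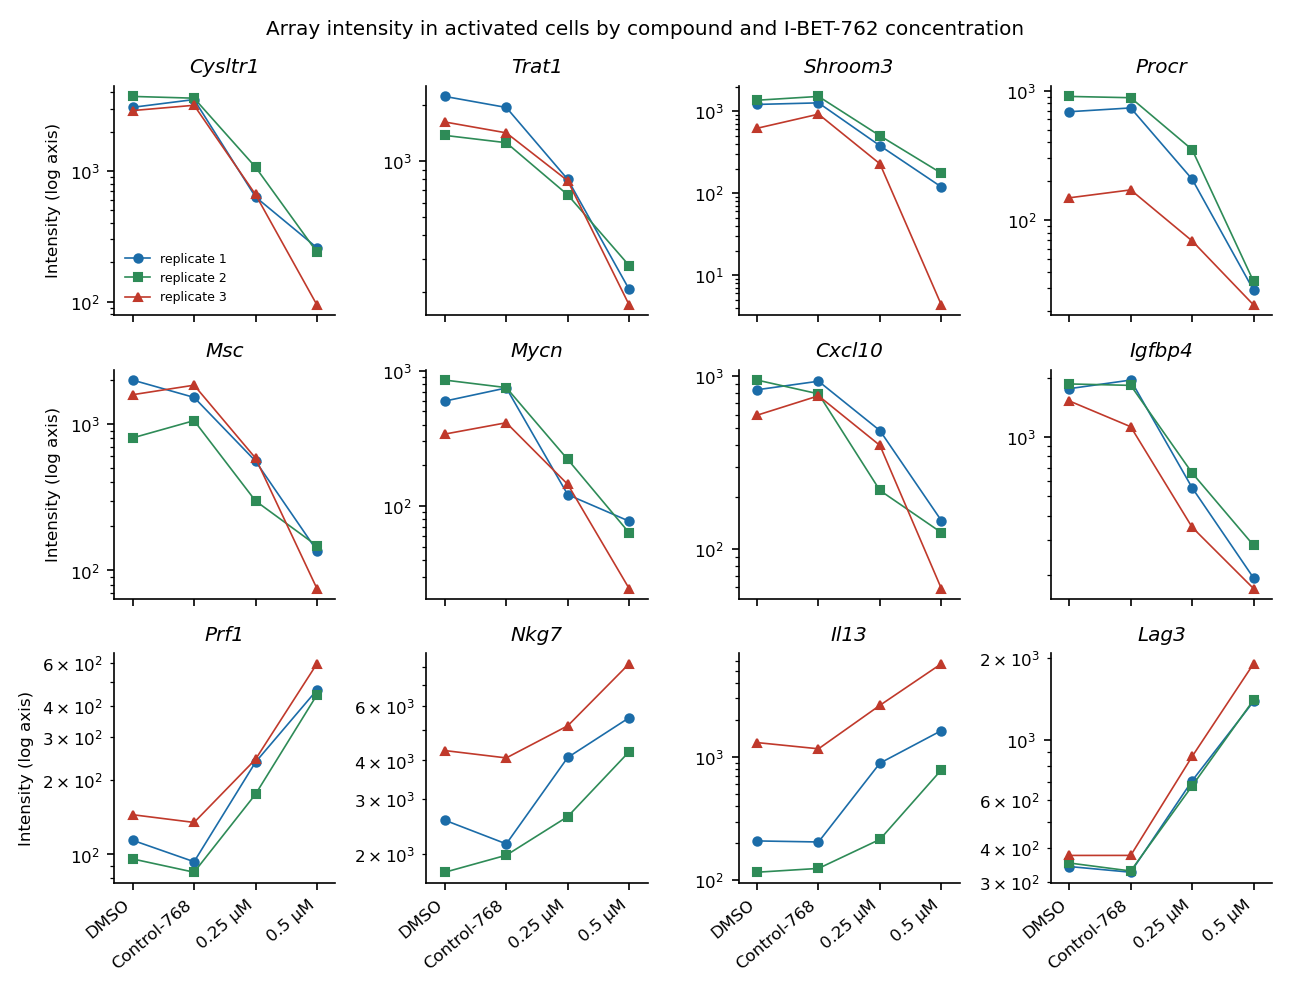
Intensity (log axis, ranges differ between panels) of 12 genes in activated cells with DMSO, Control-768, 0.25 µM and 0.5 µM I-BET-762, with 1 line for each replicate. In all 3 replicates the 8 genes of the upper rows were lower at 0.5 µM than at 0.25 µM, and Prf1, Nkg7, Il13 and Lag3 were higher; Lag3 did not pass the threshold.

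Prf1 and Nkg7, which encode proteins of cytotoxic granules, were higher at 0.5 µM. Prf1 encodes perforin, the pore-forming protein of these granules, and had intensities of 465, 444 and 593 at 0.5 µM against 237, 176 and 243 at 0.25 µM. The groups did not overlap and the pairs were even, with differences of 0.93, 1.26 and 1.23 and a change of 1.14 ± 0.14 (limma adjusted p = 0.00335). A dim second probe set of Prf1, with a mean of 36.9, gave 0.08. The promoter of Prf1, on the plus strand at chr10:61297586-61297885, is shown because Prf1 had the smallest p among the rises, with a RUNX match in capitals.
Prf1: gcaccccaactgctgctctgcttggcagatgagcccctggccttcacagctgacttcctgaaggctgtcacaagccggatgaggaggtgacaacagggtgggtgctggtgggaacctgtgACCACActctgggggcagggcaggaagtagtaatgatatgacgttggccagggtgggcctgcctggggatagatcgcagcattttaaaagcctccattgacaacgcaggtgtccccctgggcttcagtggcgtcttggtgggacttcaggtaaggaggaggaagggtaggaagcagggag
Nkg7, a membrane protein of the same granules, was bright, with 5485, 4269 and 8172 at 0.5 µM and 4089.7, 2643 and 5167 at 0.25 µM. The arrays overlapped, with replicate 3 high at both concentrations, but each pair was higher at 0.5 µM, and the change was 0.59 ± 0.10 (limma adjusted p = 0.0235). These were the 2 called among 20 measured genes of cytotoxicity and NK-type receptors, whose median change was 0.05 against -0.0028 over all genes. At an unadjusted p under 0.05, 3 of the 20 were higher and 2 lower. Among the lower ones, Klrc1 changed by -0.91 ± 0.21 (limma adjusted p = 0.114) at a dim mean of 43.6 over the 24 arrays. Summed markers of CD8 T cells were 530 to 957 at 0.5 µM and 615 to 942.0 at 0.25 µM, and those of NK cells 456 to 1070.0 at 0.5 µM and 497 to 1091 at 0.25 µM, overlapping in both cases, with 3 of the 5 NK markers under 64. Their part in these rises was not tested.

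The other rises joined a type 2 cytokine with regulators of activation. Il13, which encodes the cytokine IL-13, had 1643, 789 and 5738 at 0.5 µM against 895, 215 and 2638 at 0.25 µM. Replicates differed far more from each other than the concentrations did, so the arrays overlapped, while the paired differences were 0.87, 1.80 and 1.12 and the change 1.26 ± 0.21 (limma adjusted p = 0.0233). Tox2, an HMG-box factor found in follicular helper and exhausted T cells, was at 171, 77.1 and 146 at 0.5 µM against 57.4, 35.6 and 54.0 at 0.25 µM, without overlap (1.14 ± 0.18, limma adjusted p = 0.0172), in a probe set whose suffix marks possible matches to other transcripts. Lag3, an inhibitory receptor of activated T cells, had 1384, 1401 and 1903 at 0.5 µM against 707, 677 and 868 at 0.25 µM. Its arrays did not overlap either, but its change of 1.03 ± 0.20 missed the threshold (limma adjusted p = 0.0616). Tnfrsf1b, the second receptor of TNF, was at 1301, 1406 and 1798 at 0.5 µM against 887, 913 and 695 at 0.25 µM (0.84 ± 0.15, limma adjusted p = 0.0365), with the largest difference in replicate 3. Otulin, which removes linear ubiquitin chains in NF-kB signalling, showed paired differences of 0.42, 0.56 and 0.53 (0.50 ± 0.08, limma adjusted p = 0.0127), and Chst2, a sulfotransferase that modifies sugar chains, showed 0.74, 1.12 and 0.82 (0.89 ± 0.16, limma adjusted p = 0.0304). The arrays of Otulin and of Chst2 overlapped between the concentrations.

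Most signature cytokines did not pass the threshold at this dose step. Ifng, the defining cytokine of Th1 cells, was near the top of the scale, at 17037, 15799.8 and 17054 at 0.5 µM and 16753, 14301 and 18184 at 0.25 µM, with a change of 0.03 ± 0.23. Il10, which encodes a regulatory cytokine, was at 7945, 5921 and 15482 at 0.5 µM and 5211, 2374 and 10523 at 0.25 µM, higher in each pair, with 0.83 ± 0.29 (limma adjusted p = 0.402). Il21, which helps B cells, was at 1222, 1542 and 1076 at 0.5 µM and 1343, 2089 and 3004 at 0.25 µM, lower in each pair by unequal amounts (-0.68 ± 0.30, limma adjusted p = 0.537). Another probe set of Il21, with a mean of 336.3 over the 6 arrays, gave the other sign (0.24 ± 0.24). The T cell growth factor gene Il2 had a log2 difference of 0.32 ± 0.28, Tnf of 0.30 ± 0.20, Lta of -0.37 ± 0.35, Il17a of -0.25 ± 0.35, and the myeloid growth factor genes Csf2 of -0.43 ± 0.34 and Il3 of -0.81 ± 0.62. Apart from Tnf, which was higher in each pair, these had pairs of both signs, and none of the 6 passed the threshold (limma adjusted p of 0.693 to 0.894). Of 25 cytokine genes measured, Il13 was the 1 called (unadjusted p under 0.05 in 2 higher and 2 lower), and the median change was -0.08.

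Genes of BET proteins and MYC genes were measured too. Brd2 had intensities of 3211, 4942 and 4507 at 0.5 µM and 3239.9, 4650.0 and 3713 at 0.25 µM, and Brd3 had a log2 difference of 0.07 ± 0.08. Hexim1, an inhibitor of P-TEFb often used to report BET inhibition, was at 2045, 1962 and 1869.8 at 0.5 µM and 1973, 1866 and 1709 at 0.25 µM, with 0.08 ± 0.12 (limma adjusted p = 0.903). Myc was at 8530.3, 8408 and 10910.2 at 0.5 µM and 8404, 8289 and 8124 at 0.25 µM (0.16 ± 0.20, limma adjusted p = 0.883). The groups were close in all of these except for Myc in replicate 3, where the 0.5 µM array was above its partner. Among 19 genes of BET proteins and P-TEFb none was called (0 genes, 1 higher at an unadjusted p under 0.05), with 17 above 0 and a median of 0.08. Of 45 MYC targets 34 were above 0, with 0 called, a median of 0.06 and pair medians of -0.04, 0.01 and 0.22.

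The levels with the controls and at 0.25 µM show how far each gene already differed before the last step, in comparisons that share arrays with the dose step. Between Control-768 and DMSO no gene was called in activated cells (0 genes by limma, 0%; 445 or 2.45% at an unadjusted p under 0.05). Against Control-768, 72 genes were called at 0.25 µM (0.396%) and 613 at 0.5 µM (3.37%). The count for 0.25 µM was 19, 28 and 42 without the 0.25 µM array of replicate 1, 2 and 3, and 9, 26 and 35 without the Control-768 array of replicate 1, 2 and 3. That for 0.5 µM was 324 and 332 without the Control-768 array of replicate 1 and 3. Cysltr1 had mean intensities of 3230.1 ± 433 with DMSO, 3437 ± 224 with Control-768, 789 ± 245 at 0.25 µM and 198 ± 89.8 at 0.5 µM (SD, n = 3). Its log2 change was -2.14 ± 0.23 for 0.25 µM over Control-768 and -1.98 ± 0.23 for the dose step. Itpripl2 changed by -1.89 ± 0.18 for 0.25 µM over Control-768 (limma adjusted p = 0.000141) and by -1.22 ± 0.18 in the dose step, and Mycn by -1.85 ± 0.21 (limma adjusted p = 0.00068) and -1.37 ± 0.21. Rapgef5 had 312 ± 71.4 with DMSO, 312 ± 36.9 with Control-768, 218 ± 35.3 at 0.25 µM and 68.4 ± 27.3 at 0.5 µM, with -0.49 ± 0.19 for 0.25 µM over Control-768 (limma adjusted p = 0.515). Avpi1, Stc2 and Tnfrsf1b likewise missed the threshold at 0.25 µM over Control-768, with -0.09 ± 0.19, -0.19 ± 0.20 and 0.16 ± 0.15 (limma adjusted p of 0.936 to 0.994). Prf1 had 118 ± 24.8 with DMSO, 104 ± 26.8 with Control-768, 218 ± 37.3 at 0.25 µM and 501 ± 81.1 at 0.5 µM, and Il13 changed by 1.31 ± 0.21 for 0.25 µM over Control-768 (limma adjusted p = 0.0116). Whether the lower and the upper step differed in size was not tested.

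The means of the same dose step in resting cells came from other arrays than those of the activated step, though the spread was estimated in the same fit and the labels do not say whether both states of a replicate came from the same culture. In resting cells 211 genes were called (1.16%), 59 higher (0.324%) and 152 lower (0.835%), and this count was 74, 444 and 111 without the 0.5 µM array of replicate 1, 2 and 3, and 96 and 43 without the 0.25 µM array of replicate 2 and 3. Of the 36 genes called in activated cells, 35 had the same sign in resting cells (97.2%), against 54.8% of all genes, and 24 were called in both (66.7% of the 36 and 11.4% of the 211). Cysltr1 was at 132, 170.2 and 78.1 at 0.5 µM and 455, 796 and 630.3 at 0.25 µM in resting cells, with a change of -2.19 ± 0.23, and Trat1 was at 196, 272 and 182 at 0.5 µM and 846, 743 and 775 at 0.25 µM, with -1.81 ± 0.20. Prf1 was at 346, 264 and 209 at 0.5 µM and 229, 169 and 74.5 at 0.25 µM (0.82 ± 0.14, limma adjusted p = 0.00837). Procr and Shroom3 led the falls of resting cells too, with -2.70 ± 0.37 and -2.58 ± 0.38. Some genes were called in resting cells and not in activated ones, with no called difference between the states: Ccl5, a chemokine, had a log2 difference of 0.71 ± 0.24 in activated and 1.59 ± 0.24 in resting cells, Klf3, a repressor, of 0.67 ± 0.20 in activated and 1.62 ± 0.20 in resting cells, and Enah, an actin regulator, of -0.77 ± 0.54 in activated and -2.41 ± 0.54 in resting cells.

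**Figure D3:**
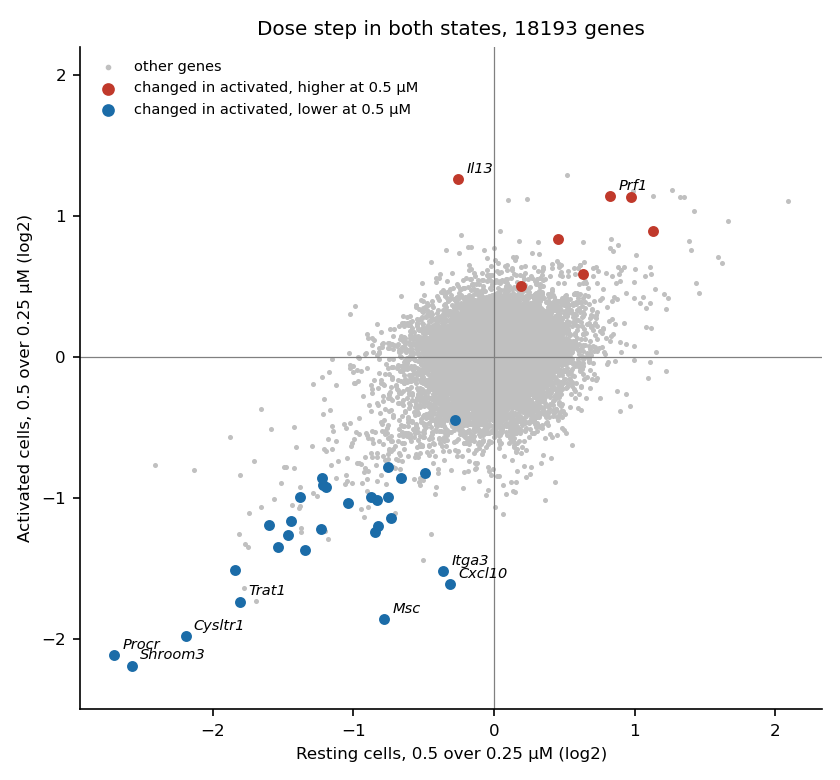
Log2 change of 0.5 over 0.25 µM in activated cells (vertical) against that in resting cells (horizontal) for 18193 genes, with the 36 genes called in activated cells in colour. Of the 36, 35 lie in the quadrants of equal sign, and Il13 lies above 0 in activated and below 0 in resting cells.

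For no gene was a difference of the dose step between activated and resting cells called (0 genes by limma, 0%, smallest adjusted p of 0.629; 1355 genes or 7.45% at an unadjusted p under 0.05). Leaving out the activated 0.25 µM array of replicate 1 gave 2 calls and leaving out the resting 0.5 µM array of replicate 2 gave 1. Il13 had the smallest p of the 36, with an unadjusted p of 0.000127 and a difference of 1.52 ± 0.30, and was dim in resting cells, at 9.35, 8.24 and 13.5 at 0.5 µM and 12.6, 9.13 and 26.9 at 0.25 µM. Msc was dim in resting cells as well, at 7.51, 6.34 and 3.32 at 0.5 µM and 11.1, 17.9 and 40.3 at 0.25 µM, and so was Cxcl10 in replicates 1 and 2, at 5.81, 4.97 and 55.4 at 0.5 µM and 8.26, 3.58 and 116 at 0.25 µM. With Itga3 and Otulin these were the 5 of the 36 with an unadjusted p under 0.05 for the difference. Bcl6, a transcriptional repressor on which the follicular helper lineage depends, had a log2 difference of -0.10 ± 0.21 in activated and 1.22 ± 0.21 in resting cells (difference unadjusted p = 0.000398, limma adjusted p = 0.629).

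Genes that responded to 0.5 µM in resting cells had medians on the same side of 0 in the activated dose step. These genes were chosen on the means of resting arrays, but with a spread estimated from all 24 arrays, and the labels do not say whether both states of a replicate share a culture. Of the 402 genes higher than Control-768 at 0.5 µM in resting cells (2.21% of all), 6 were called higher in the activated step and 0 lower, and 128 against 3 reached an unadjusted p under 0.05, for which the shares over all genes were 3.67% and 5.12%. Their median change was 0.18, with pair medians of 0.21, 0.22 and 0.14. Of the 605 lower genes (3.33% of all), 28 were called lower and 0 higher, and 256 against 4 reached an unadjusted p under 0.05. Their median change was -0.25, with pair medians of -0.18, -0.22 and -0.38, so that both lists kept their direction in every pair.

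**Figure D4:**
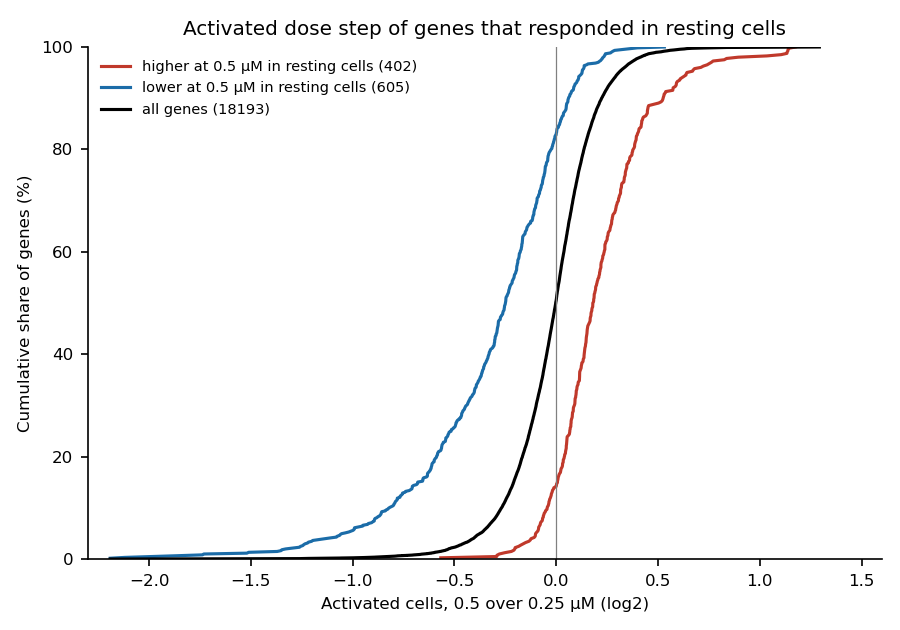
Cumulative share of genes (%) by their log2 change of 0.5 over 0.25 µM in activated cells, for the 402 genes higher and the 605 genes lower than Control-768 at 0.5 µM in resting cells and for all 18193 genes. The curve of the 402 lies to the right of that of all genes, with a median of 0.18, and that of the 605 to the left, with a median of -0.25.

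Other gene groups differed by small amounts, and many of them in replicate 3 above all. Over all genes 50.6% were below 0 and 49.3% above it. Of 39 genes of DNA replication and S phase, 37 were below 0 and 0 called (unadjusted p under 0.05 in 1 higher and 1 lower), with a median of -0.28 made of pair medians of -0.02, 0.04 and -0.91. Of 36 genes of G2/M and mitosis 35 were below 0 and 0 called (10 lower at an unadjusted p under 0.05), with pair medians of -0.03, -0.05 and -0.67. Aurka, a mitotic kinase, had 1073 ± 221 at 0.5 µM and 1473 ± 137 at 0.25 µM (SD, n = 3) and a change of -0.47 ± 0.15 (limma adjusted p = 0.342). Ribosome biogenesis genes ran the other way, with 40 of 41 above 0, 0 called, a median of 0.12 and pair medians of -0.02, 0.04 and 0.38. The pair median of replicate 3 was the farthest from 0 in each of these lists. In the mitosis list 47.2% of the genes were nevertheless lower in all 3 pairs, against 14.4% of all genes. The Gapdh ratio was high in both compared arrays of replicate 3, as given above, and also in its activated Control-768 array (0.284), and its part in these differences was not tested.

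Interferon-stimulated genes and genes of the amino acid response were lower in each pair by their medians. Of 36 interferon-stimulated genes 30 were below 0, Cxcl10 was called, 8 were lower at an unadjusted p under 0.05 against 1 higher, and the pair medians were -0.16, -0.16 and -0.46. Irgm1, an interferon-induced GTPase, had 609, 788 and 127 at 0.5 µM and 873, 1175 and 545 at 0.25 µM, with -1.01 ± 0.24 (limma adjusted p = 0.133), and its lowest value was in replicate 3. Of 27 genes that respond to ATF4 and amino acid supply 23 were below 0 and 0 called, with 9 lower and 1 higher at an unadjusted p under 0.05 and pair medians of -0.07, -0.14 and -0.35. Asns, which makes asparagine, had 1491, 1448 and 480.1 at 0.5 µM and 2524, 2813 and 2499 at 0.25 µM (-1.35 ± 0.39, limma adjusted p = 0.275). Trib3, a pseudokinase induced by ATF4, had a log2 difference of -1.14 ± 0.30 (limma adjusted p = 0.205).

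In several lists of receptors and signalling more genes were above 0 than below it, where 49.3% of all genes were above 0. The chemokine and cytokine receptors went the other way, with 16 of 26 below 0 and a median of -0.10, and with pair medians of 0.05, 0.03 and -0.52. Of 10 genes in a list of inhibitory receptors and TOX factors 6 were above 0, and the 1 called was the nuclear factor gene Tox2 and no receptor. In this list 4 were higher against 1 lower at an unadjusted p under 0.05, with a median of 0.47 and pair medians of 0.35, 0.31 and 0.31. Of 20 NF-kB genes 16 were above 0, 0 called and 3 higher at an unadjusted p under 0.05, with pair medians of 0.05, 0.13 and 0.43. Malt1, a protease that couples antigen receptors to NF-kB, had 4659, 4197 and 5941 at 0.5 µM and 3709, 3429.7 and 4038 at 0.25 µM (0.39 ± 0.12, limma adjusted p = 0.315). Its other probe sets, with means of 1463 and 757.5 over the 6 arrays, gave larger changes of 0.94 ± 0.31 and 0.92 ± 0.34. Of 19 genes of the T cell receptor complex and its signalling 13 were above 0 and 0 called, with 4 higher at an unadjusted p under 0.05 and pair medians of 0.12, 0.11 and 0.23. Cd3g, a chain of that complex, had 5906, 5654 and 5912 at 0.5 µM and 4586, 4931 and 4350.2 at 0.25 µM, without overlap (0.33 ± 0.09, limma adjusted p = 0.193). The summed CD4 T cell markers, which include this gene, were higher at 0.5 µM by the values given above, and their part in these changes was not tested. Of 40 immediate early and receptor-induced genes 29 were above 0 and 0 called, 7 higher and 1 lower at an unadjusted p under 0.05. Their median was 0.15, with pair medians of 0.08, 0.05 and 0.32.

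**Figure D5:**
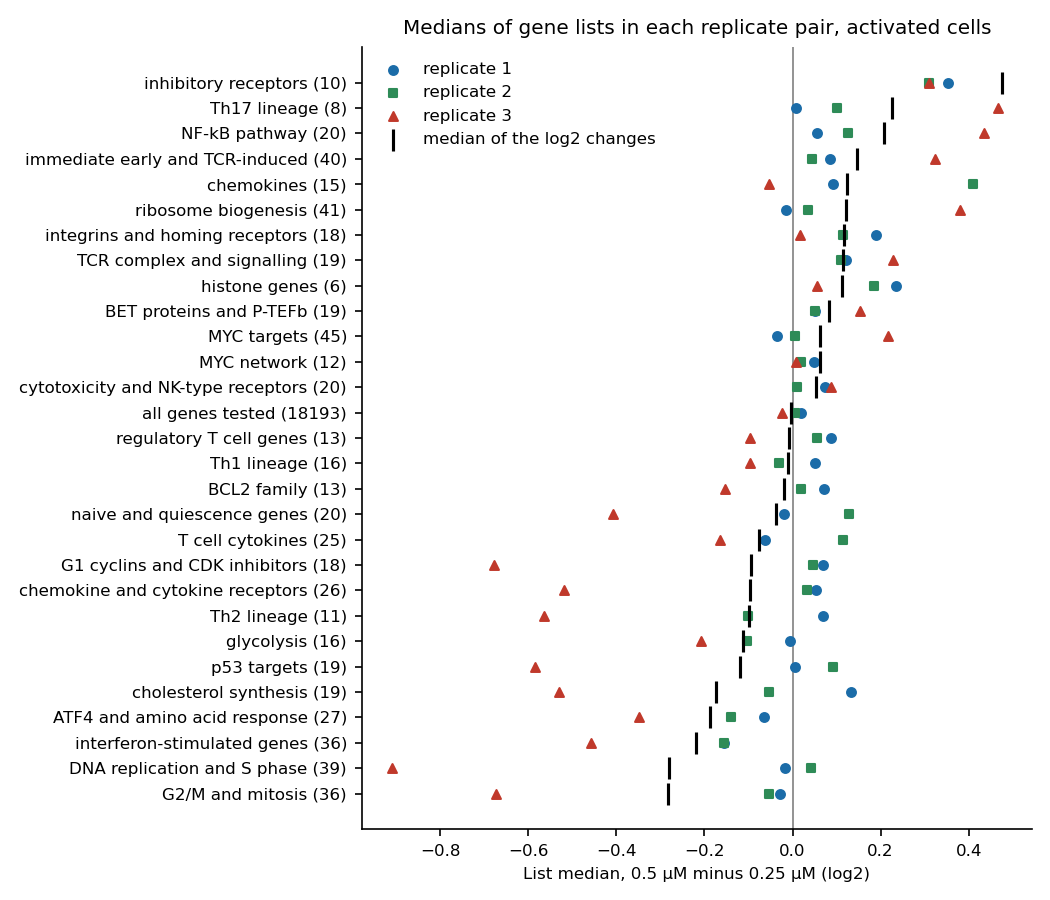
Median log2 change of 0.5 over 0.25 µM for each gene list in activated cells (rows, number of genes measured in brackets), with 1 point for each replicate pair and a black bar at the median of the genes' mean changes. The points of replicate 3 lie at -0.91 and -0.67 for the lists of S phase and of mitosis, where those of replicates 1 and 2 lie between -0.05 and 0.04.

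Lineage lists held differences of both signs. Of 16 Th1 genes Nkg7 was called, 8 were above and 8 below 0, and 6 were lower against 2 higher at an unadjusted p under 0.05. Hlx, a homeobox factor of Th1 cells, was at 287, 259.9 and 135 at 0.5 µM and 317, 421 and 276 at 0.25 µM (-0.58 ± 0.15, limma adjusted p = 0.205). Of 11 Th2 genes Il13 was called, and 8 were below 0. Of 8 Th17 genes 0 were called, with Ahr, the aryl hydrocarbon receptor, at 1.29 ± 0.31 and Rora, a nuclear receptor, at -0.79 ± 0.21 (limma adjusted p of 0.152 and 0.205). These counts rest on 1 probe set for each gene. The other probe sets of Rora were all lower too, by -0.23 to -1.08. Among them, 1 with a mean of 97.8 over the 6 arrays gave -0.96 (limma unadjusted p = 3.59e-05). Of 26 chemokine and cytokine receptors 7 were lower and 1 higher at an unadjusted p under 0.05, with 0 called. This list does not hold Il1rl2 and Tnfrsf1b, cytokine receptor genes that were called lower and higher as given above. Il7r, the receptor chain for IL-7, had 1588, 1966 and 255 at 0.5 µM and 2615, 2672 and 1638 at 0.25 µM, and the groups overlapped (-1.25 ± 0.33, limma adjusted p = 0.205). Cxcr3, the receptor of Cxcl10, had 432, 506 and 649 at 0.5 µM and 807, 725 and 1156 at 0.25 µM, lower in each pair (-0.73 ± 0.21, limma adjusted p = 0.261).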

How the data were processed

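The deposited values are array intensities on a linear scale, 1 for each of 45101 probe sets on 24 arrays. Details of the authors' summarization and normalization are not given in the sources used here. From 34945 probe sets with a single gene symbol, the one with the highest mean over the 24 arrays stood for each of 18193 genes. Values were analysed as log2(intensity + 16) in limma 3.58.1 under R 4.3.3, with 8 group means, the replicate number within each state as a fixed block, and 12 residual plus 3.35 prior degrees of freedom. All tests were two-sided with Benjamini-Hochberg adjustment over all genes. Precision is limited by the array number, with a median 95% interval of 0.328 to either side of a change.

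Replicate numbers come from the sample titles. The deviations from the group means of the 0.5 and 0.25 µM arrays of the same number correlated at 0.226, 0.437 and 0.481 in activated cells, and every pair of conditions within a number at 0.155 or more, so the numbers were taken to pair the samples.

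The genes named are all those called, fixed cytokine, BET and MYC genes, and the members of fixed lists with the smallest p. Rises and falls of the resting step were taken by size of change among called genes with 3 paired differences of the same sign. No gene was called for the difference between the states. Its genes were those with the smallest p and a mean of at least 64 over the I-BET-762 arrays. Members and lists were chosen with earlier results of these data known. The script was tested on simulated data. Alternatives changed the block, arrays, added constant, scaling, filter, probe sets and weights. A fit of all probe sets was added after seeing the data.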

Additional observations from a re-analysis of the deposited data

How the results depend on the processing

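The count of 36 genes for the activated dose step was 2 with no replicate block, 8 with the replicate block as a random effect, 13 with the 12 activated arrays alone and 0 with the 6 compared arrays alone (limma; 1163 genes at an unadjusted p under 0.05). It was 16 with a constant of 1, 67 with dim genes left out and 120 with array quality weights, and between 0 and 28 with arrays or replicates left out. The share of higher calls was 19.4%, against 34% with a constant of 64, 33.3% with arrays centred on their medians and 41.7% with array weights. Of the 36, 34 kept their sign in every alternative, and with the median of all probe sets Mycn turned to 0.0365 and Ptprk to 0.14, where other probe sets of these genes enter. The paired resting step (211 genes) gave 12 with no replicate block, 37 with a random block, 86 with resting arrays alone, 0 with the compared arrays alone, 139 and 326 with constants of 1 and 64, 397 without dim genes, 131 with the median of probe sets, 580 with weights and 5 to 444 with arrays or replicates left out. For 0.25 µM over Control-768 (72) the counts were 13 with no replicate block, 44 random, 19 by state, 0 for the compared arrays, 395 with weights and 1 to 129 with arrays or replicates left out. For 0.5 µM over Control-768 (613) they were 136 with no replicate block, 386 random, 46 for the compared arrays, 1123 with weights, and 112 to 827 with arrays or replicates left out. The difference of the steps stayed between 0 and 2. The causes were not tested, beyond the fewer arrays or genes that some alternatives hold.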

Other observations

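Gene groups of metabolism and cell fate that the comparison above does not describe held no call among the genes listed here in the activated dose step. Of 16 glycolysis genes 15 were below 0, with a median of -0.11 and pair medians of -0.01, -0.10 and -0.21; Aldoc, an aldolase, had a log2 difference of -0.43. Of 19 genes of cholesterol synthesis 14 were below 0, with pair medians of 0.13, -0.05 and -0.53, so that replicate 1 ran against the other two. Of 19 p53 targets 12 were below 0, with pair medians of 0.01, 0.09 and -0.59. Trp53inp1, a regulator of autophagy and cell death, had paired differences of 0.33, 0.29 and 0.19. Of 18 integrin and homing receptor genes 14 were above 0 and 4 were higher at an unadjusted p under 0.05 (0 lower), with a median of 0.12; Itgb1 had a log2 difference of 0.40 and Itgb7, a chain of gut-homing integrins, of 0.42. This list does not hold Itga3, an integrin gene called lower above.

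Among 20 naive and quiescence genes Igfbp4 was called, and among 13 regulatory T cell genes Ebi3. Foxo1, a factor of quiescent T cells, was higher in each pair, by 0.38, 0.39 and 0.48 (limma adjusted p = 0.275). Of 23 genes named in earlier work on these arrays for 0.5 µM, 9 were called lower and 2 higher; they had been chosen on the same arrays, so this count is no independent evidence of their direction.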
